A study of Mus musculus with 20 samples.

Results

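The 37 genes described here encode the enzymes of mitochondrial and peroxisomal fatty acid oxidation, together with classical target genes of the nuclear receptor PPARA and the gene Ppara itself. They were taken by symbol from a list without a rule on measured values, though earlier results of these data were known when it was chosen. Only table lines that were intact were used. Of the 37 listed genes 31 had an intact line and 30 passed the filter on low counts, out of 35504 genes in the table and 10207 tested. Hadha, Hadhb and Echs1 (mitochondrial), Ech1 (found in both organelles), Acox2 and Acox3 (peroxisomal) had displaced lines and were not analysed here. Acot5, a peroxisomal thioesterase, had an intact line with 5 counts over the 20 libraries and was not tested.

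Liver RNA was sequenced from 20 female mice in 4 groups of 5. Oral combined contraceptives (OC) in the diet with voluntary wheel running formed the group OC.VWR, OC without a wheel OC.Sed, the vehicle diet with running Con.VWR and the vehicle diet without running Con.Sed. Each library came from the liver of 1 mouse, so the replicates were separate animals, and the replicate numbers are only names. The steroids, their dose, and the strain, age and genotype of the mice are not given in the sources used here. Total counts per library were 12769367 to 14757592 in OC.VWR, 12172401 to 14759028 in OC.Sed, 13886098 to 16134618 in Con.VWR and 10883936 to 14260634 in Con.Sed.

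Fatty acids are activated to acyl-CoA esters by synthetases such as Acsl1 and Acsl5, and long-chain esters cross into mitochondria as carnitine esters before they are shortened by the beta-oxidation spiral. Peroxisomes shorten very-long-chain and branched substrates and pass the products on as carnitine esters or as free acids, which acyl-CoA thioesterases of the Acot family release. PPARA is a receptor for fatty acid ligands that binds DNA as a dimer with RXR, at a pair of AGGTCA half-sites in direct repeat, and in rodent liver it induces many of these genes, among them the thioesterases, Acaa1b, Plin2 and Vnn1.

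The promoters of 4 tested members are shown because they hold letters close to that direct repeat and because their genes behaved differently. In RefSeq promoter windows on GRCm38.p6, from 250 bases before the start site to 50 bases after it, both strands were searched for a pair of AGGTCA in direct repeat with 1 free base between, allowing up to 2 mismatches. Windows were found for 32 of the 37 listed genes. A match was present in 4 of the 25 tested members with a window (16%), against 1268 of 32851 windows in the whole table (3.86%). With at most 1 mismatch the share over the table was 0.554%, and Acot12 was the only tested member with such a match. The matches are in capitals and were centred 7 bases before the start site in Acot4 (chr12:84038129-84038428, plus strand), 219 before it in Plin2 (chr4:86670010-86670309, minus strand), 203 before it in Creb3l3 (chr10:81092542-81092841, minus strand) and 104 before it in Acot12 (chr13:91741271-91741570, plus strand). All 4 are printed 5′ to 3′ on the strand of the gene.
Acot4: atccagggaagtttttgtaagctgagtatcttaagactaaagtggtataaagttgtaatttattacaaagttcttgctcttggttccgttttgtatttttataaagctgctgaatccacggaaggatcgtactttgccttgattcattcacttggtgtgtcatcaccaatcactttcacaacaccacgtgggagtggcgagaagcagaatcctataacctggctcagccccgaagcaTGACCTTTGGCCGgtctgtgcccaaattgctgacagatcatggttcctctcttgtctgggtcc
Plin2: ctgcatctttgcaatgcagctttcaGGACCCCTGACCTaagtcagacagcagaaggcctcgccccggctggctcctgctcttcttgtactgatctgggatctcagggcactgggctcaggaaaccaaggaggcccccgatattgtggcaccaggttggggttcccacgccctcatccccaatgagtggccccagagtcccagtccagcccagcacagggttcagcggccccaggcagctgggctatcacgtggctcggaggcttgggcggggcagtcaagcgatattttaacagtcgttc
Creb3l3: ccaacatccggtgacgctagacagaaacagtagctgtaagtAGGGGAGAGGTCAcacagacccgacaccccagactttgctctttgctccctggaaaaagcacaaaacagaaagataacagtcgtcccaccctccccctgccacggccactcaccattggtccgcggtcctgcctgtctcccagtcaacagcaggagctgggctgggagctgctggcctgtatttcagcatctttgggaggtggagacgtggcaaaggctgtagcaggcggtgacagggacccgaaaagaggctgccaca
Acot12: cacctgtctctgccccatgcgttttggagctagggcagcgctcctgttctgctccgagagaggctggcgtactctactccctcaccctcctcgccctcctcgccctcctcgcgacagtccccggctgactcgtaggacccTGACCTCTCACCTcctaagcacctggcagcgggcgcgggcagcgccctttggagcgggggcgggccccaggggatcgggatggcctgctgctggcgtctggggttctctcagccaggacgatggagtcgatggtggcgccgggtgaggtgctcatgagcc
Such a match describes the letters only and is no evidence of binding. Of the 4 genes, Acot4 and Plin2 were lower on OC, Creb3l3 was slightly higher averaged over activity, and Acot12 was not called. Tested members with a window but no match included Acaa1b, Hadh and Acot3, all lower on OC, while Crat had no window and was not searched.

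Livers of mice on the contraceptive diet had less RNA of thioesterases (Acot2, Acot3, Acot4), carnitine acyltransferases (Crat, Crot), the thiolase Acaa1b and the lipid droplet protein Plin2, and more of the CoA hydrolase Nudt7 in sedentary mice. In running mice 13 of the 30 tested members were lower on OC and 0 were higher, where 13.2% of all tested genes were called either way, 6.06% lower and 7.09% higher. In sedentary mice 9 were lower and 1 was higher, where 16.3% of all tested genes were called, 7.20% lower and 9.11% higher. Averaged over activity, 14 were lower and 2 higher, where 22.9% of all tested genes were called, 11.0% lower and 11.9% higher. The same 9 members were lower in both activities, namely Hadh, Eci1, Acot2, Crat, Acaa1b, Acot3, Acot4, Crot and Plin2, where 256 of all tested genes (2.51%) were lower in both. The count in running mice was 7 without OC.VWR replicate 1, 8 without OC.VWR replicate 3 and 7 without Con.VWR replicate 3, and that in sedentary mice was 6 without OC.Sed replicate 5. Every running OC library lay below every running vehicle library in 9 members, where 4.95% of all tested genes did so, and the same held between the sedentary groups in 4 members, where 4.01% did. Calls are at an adjusted p under 0.05 from edgeR's quasi-likelihood test, with Benjamini-Hochberg adjustment over all 10207 genes, and every adjusted p is of that kind unless another tool is named.

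The median log2 fold change of the 30 members was -0.44 in running mice and -0.27 in sedentary mice, where the medians of all tested genes were 0.01 and -0.01. Of the 30 members 23 lay below 0 in running mice and 21 in sedentary mice, where 48.96% and 51.80% of all genes did. When libraries were scaled by their totals alone, the median of all genes moved to 0.12 in running and 0.10 in sedentary mice, and the members' medians were -0.32 and -0.15. The split of calls under that scaling was 9 lower and 2 higher in running mice, 7 lower and 1 higher in sedentary mice and 11 lower and 4 higher averaged over activity. Of the calls among all genes, 80.6% in running mice, 82.6% in sedentary mice and 81.0% averaged over activity were higher under that scaling, against 53.9%, 55.9% and 51.8% with TMM. In bulk liver, fewer cells of a type and less RNA per cell cannot be told apart.

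**Figure D1:**
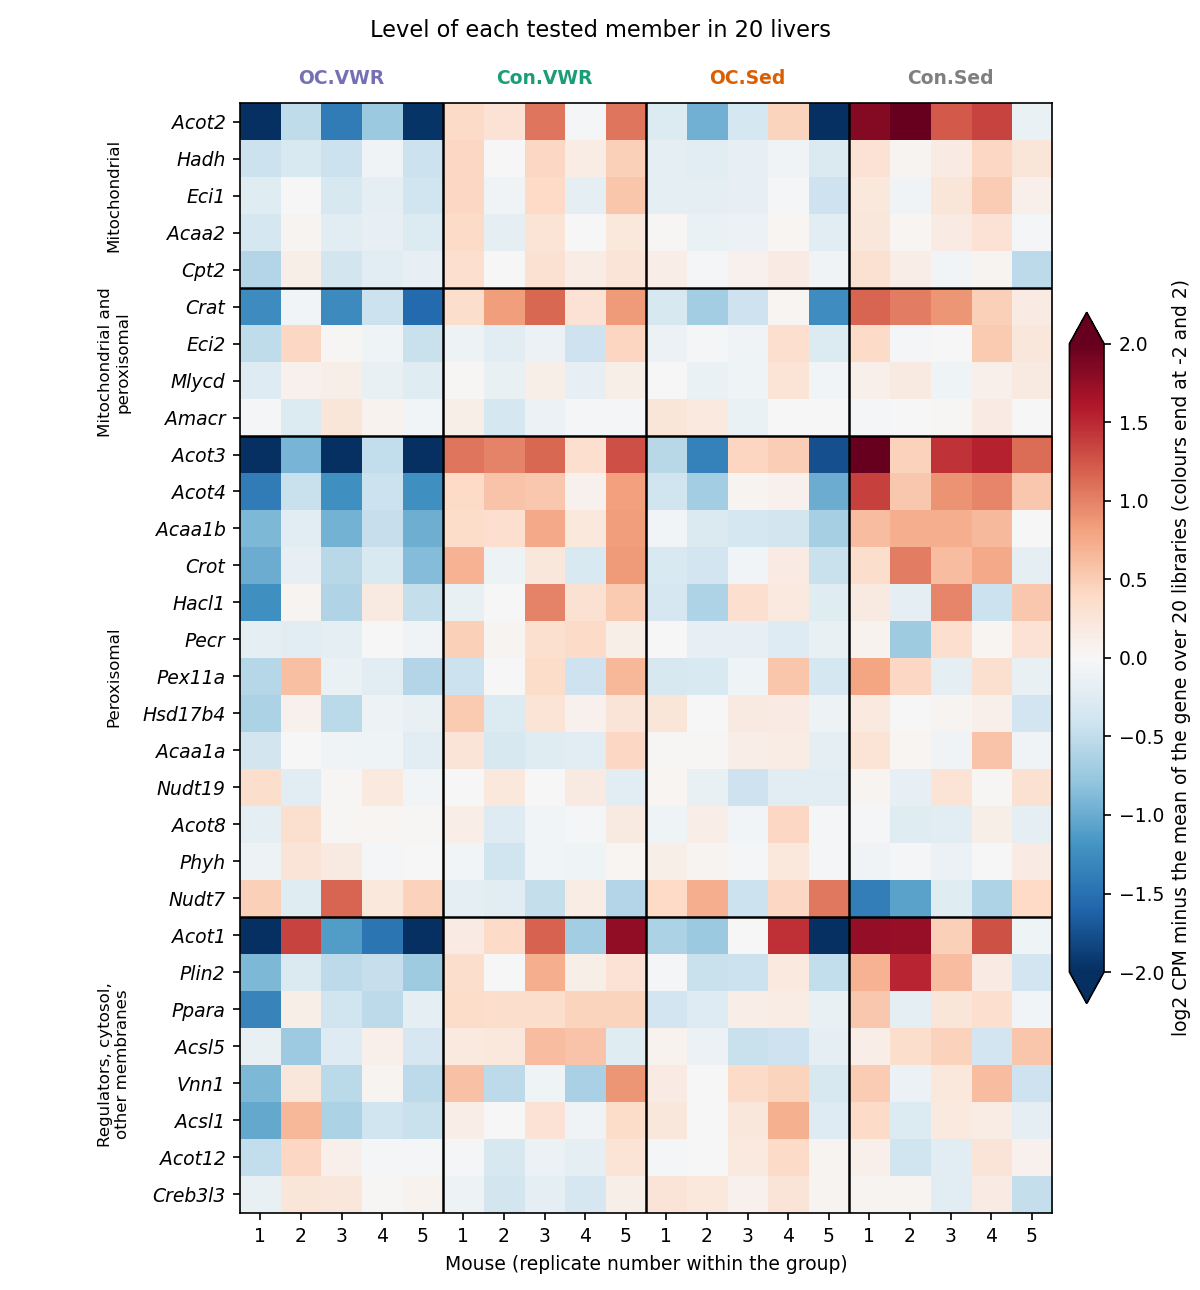
Log2 CPM (read counts relative to library size scaled by TMM) of the 30 tested members in each of the 20 livers, minus the gene's mean over all libraries, with colours that end at -2 and 2. Columns are mice, grouped as OC.VWR, Con.VWR, OC.Sed and Con.Sed, and rows are grouped by compartment. Acot2, Crat, Acot3, Acot4 and Acaa1b are mostly blue in both OC groups and mostly red in both vehicle groups, while Phyh, Amacr and Mlycd stay close to white.

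**Figure D2:**
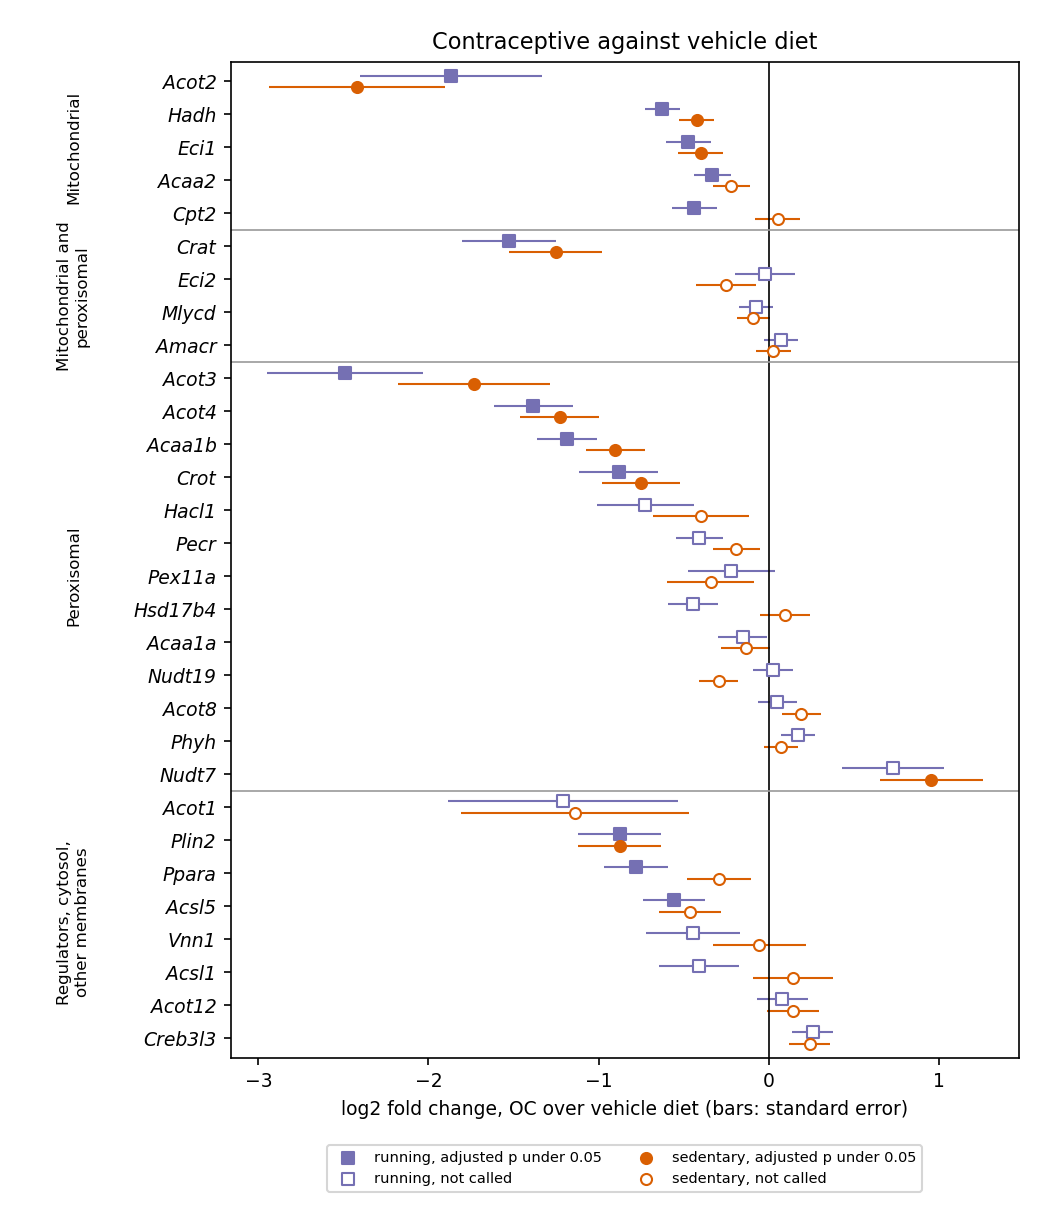
Fitted log2 fold change of OC over vehicle diet for each tested member, in running mice (squares) and sedentary mice (circles), with bars of 1 standard error on each side. Filled symbols mark an adjusted p under 0.05. All 5 mitochondrial members are filled in running mice and 3 in sedentary mice, Acot3 and Acot2 lie furthest to the left, and Nudt7 is the filled symbol to the right of 0.

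Some libraries stood apart in ways that touch these results. Con.Sed replicate 2 had the highest Plin2 and Acot2 of all 20 libraries, and the summed level of the 4 intact adipocyte markers of 6 listed was 41.0 CPM in it. That sum ran from 0.515 to 10.8 CPM in OC.VWR, 1.24 to 9.68 in OC.Sed, 1.27 to 16.5 in Con.VWR and 1.41 to 41.0 in Con.Sed, and none of the 4 markers was at 0 in every library. Plin1 and Cidec among these markers are also in the lists of lipid droplet genes and PPARA targets below. The sum is therefore not a measure of adipocytes alone. Hepatocyte markers, mostly albumin, summed over 7 intact genes of 10 to 88623 to 125606 CPM in OC.VWR and 101595 to 128941 in OC.Sed, against 148866 to 207821 in Con.VWR and 169734 to 197945 in Con.Sed. Stellate cell markers, 7 intact of 10, summed to 353 to 555 CPM in OC.VWR and 356 to 599.6 in OC.Sed, against 541 to 707 in Con.VWR and 573 to 850.1 in Con.Sed. The hepatocyte sums did not overlap between diets in either activity, and the part of these markers in the results was not tested. Averaged over activity, 5 of the 7 hepatocyte markers were called lower on OC, 0 higher and 2 not at all, where 11.0% of all tested genes were lower. The marker Asgr1 averaged 754 CPM in OC.VWR and 690 in OC.Sed, against 687 in Con.VWR and 752 in Con.Sed. Sums of endothelial, macrophage, lymphocyte and neutrophil, and cholangiocyte markers overlapped between the diets in both activities. Averaged over activity, 6 of 7 stellate cell, 2 of 5 lymphocyte and neutrophil and 2 of 3 tested adipocyte markers were lower, and 0 were higher. Of 6 macrophage markers 1 was higher and 0 lower, and no endothelial or cholangiocyte marker was called. The stellate cell marker Des averaged 10.4 ± 2.51 CPM in OC.VWR and 25.0 ± 36.6 in OC.Sed, against 14.1 ± 8.14 in Con.VWR and 12.3 ± 2.81 in Con.Sed (SD, n = 5 each).

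Levels per exon length differed widely between members. Over all 20 libraries Phyh stood at 1000.2 CPM per kilobase, Acaa1b at 627 and Acaa2 at 583, while Acot2 stood at 9.41, Acot8 at 11.1 and Acot1 at 12.9. The spread between mice of 1 group also differed. The highest Acot1 value was 15.3 times the lowest in OC.VWR and 12.5 times in OC.Sed, whereas the highest Ppara value was 1.07 times the lowest in Con.VWR. The 6 widest spreads within a group were those of Acot1 in 3 groups, Acot2 in 2 and Acot3 in 1.

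Among the 5 tested mitochondrial members (8 listed), 5 were lower on OC in running mice and 3 in sedentary mice. Of all tested genes 6.06% and 7.20% were lower in these comparisons. Only Hadh of the 5 was called in both activities under each of the 27 settings tried. Hadh (chr3:131233419-131272101) encodes the mitochondrial hydroxyacyl-CoA dehydrogenase of the beta-oxidation spiral. It was measured at 417, 456, 419, 534 and 417 CPM in the running OC mice, against 746, 563, 749, 623 and 781 CPM in the running vehicle mice. All OC values lay below all vehicle values, and Hadh was 1.54-fold lower (log2 fold change -0.63, SE 0.10, adjusted p = 0.000328). Sedentary values were 491, 483, 505, 536 and 459 CPM in the sedentary OC mice, against 687, 584, 628, 752 and 666 CPM in the sedentary vehicle mice. Again no value overlapped between the diets, and the decrease was 1.34-fold (log2 fold change -0.42, SE 0.10, adjusted p = 0.00875). Hadh is 1 of 3 tested members, with Crat and Acaa1b, in which all 10 OC livers lay below all 10 vehicle livers, where 0.843% of all tested genes did so.

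Acot2 (chr12:83987861-83993873), the thioesterase of the mitochondrial matrix, showed the largest fitted decrease of the mitochondrial members, at low levels. Its values were 2.13, 8.70, 4.70, 7.39 and 3.17 CPM in the running OC mice, against 16.1, 15.1, 25.9, 12.1 and 25.9 CPM in the running vehicle mice. The ranges did not overlap, and Acot2 was 3.65-fold lower (log2 fold change -1.87, SE 0.54, adjusted p = 0.0249). The sedentary values were 10.2, 6.37, 9.68, 16.8 and 2.72 CPM in the sedentary OC mice, against 44.3, 130.2, 28.8, 31.7 and 11.3 CPM in the sedentary vehicle mice. OC replicate 4 was above vehicle replicate 5 there, and vehicle replicate 2 was far above the other 4. Acot2 was 5.35-fold lower in sedentary mice (log2 fold change -2.42, SE 0.52, adjusted p = 0.00328), and without that vehicle library the log2 value was -1.66 with an adjusted p of 0.0106. Of its 50-base stretches 27.71% also occur in other genes, most of them in Acot1 (24.55%), so counts of the 2 genes could have been split between them and are uncertain.

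Eci1 (chr17:24426641-24439348), an isomerase needed to oxidise unsaturated fatty acids, was lower by a small margin in both activities. Its values were 149.9, 175, 142, 156 and 134 CPM in the running OC mice, against 235, 169, 232, 156 and 259 CPM in the running vehicle mice. Vehicle replicates 2 and 4 lay within the OC range, and Eci1 was 1.39-fold lower (log2 fold change -0.47, SE 0.13, adjusted p = 0.0226). The sedentary values were 156, 157, 159, 174 and 133 CPM in the sedentary OC mice, against 205, 169, 210.1, 253 and 191 CPM in the sedentary vehicle mice. Here OC replicate 4 exceeded vehicle replicate 2, and the decrease was 1.32-fold (log2 fold change -0.40, SE 0.13, adjusted p = 0.0435). The sedentary call was present under 16 of 27 settings.

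Cpt2 (chr4:107903981-107923610), which returns imported acyl groups to CoA in the matrix, was lower on OC in running mice but was not called in sedentary mice. It had 85.9, 139, 100.02, 111 and 115 CPM in the running OC mice, against 163, 128, 159, 142 and 153 CPM in the running vehicle mice. Only OC replicate 2 reached into the vehicle range, and Cpt2 was 1.35-fold lower (log2 fold change -0.44, SE 0.13, adjusted p = 0.0314). The sedentary libraries had 141, 127, 137, 144 and 123 CPM in the sedentary OC mice, against 159, 141, 124, 134 and 89.6 CPM in the sedentary vehicle mice. All 5 OC values lay within the vehicle range, with a log2 fold change of 0.05 and an adjusted p of 0.819. The difference between the 2 effects did not pass the interaction test (log2 difference -0.49, SE 0.18, adjusted p = 0.222).

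Acaa2, the mitochondrial thiolase that completes each turn of the spiral, was among the most abundant members per exon length, at 583 CPM per kilobase over all libraries. Its values were 686, 909, 751, 780.05 and 724 CPM in the running OC mice, against 1137, 761, 1056, 882 and 1007 CPM in the running vehicle mice. The ranges overlapped, and the decrease of 1.26-fold sat at the threshold (log2 fold change -0.33, SE 0.11, adjusted p = 0.0487). It was called under only 6 of 27 settings. The sedentary libraries had 889, 801, 803, 899 and 749.8 CPM in the sedentary OC mice, against 1026, 894, 981, 1064 and 861 CPM in the sedentary vehicle mice, which overlapped, and the change was not called (log2 fold change -0.22, adjusted p = 0.175). Averaged over activity Acaa2 was 1.21-fold lower (log2 fold change -0.28, SE 0.08, adjusted p = 0.0127).

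Of the 4 tested members that work in both mitochondria and peroxisomes, only Crat was called in either activity. Crat (chr2:30400471-30415813) encodes carnitine acetyltransferase, which moves acetyl groups between CoA and carnitine. It was measured at 29.8, 68.7, 29.2, 52.98 and 24.3 CPM in the running OC mice, against 90.2, 126, 158, 87.2 and 129 CPM in the running vehicle mice. Every OC value lay below every vehicle value, and Crat was 2.88-fold lower (log2 fold change -1.53, SE 0.28, adjusted p = 0.000845). The sedentary values were 56.9, 43.97, 53.2, 72.997 and 30.2 CPM in the sedentary OC mice, against 159.8, 144, 131, 98.4 and 79.6 CPM in the sedentary vehicle mice. These did not overlap either, and the decrease was 2.38-fold (log2 fold change -1.25, SE 0.27, adjusted p = 0.00418). Crat was called in both activities under each of the 27 settings tried.

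Eci2, a second enoyl-CoA isomerase, averaged 283 ± 76.1 CPM in OC.VWR and 296 ± 49.2 CPM in OC.Sed, against 287 ± 68.2 CPM in Con.VWR and 352 ± 58.4 CPM in Con.Sed (SD, n = 5 each). Mlycd, which removes the malonyl-CoA that blocks carnitine import, ranged from 89.6 to 116 CPM in OC.VWR and 97.95 to 129 CPM in OC.Sed, against 95.7 to 116 CPM in Con.VWR and 101 to 121 CPM in Con.Sed. Amacr, the racemase for branched acyl-CoA and bile acid intermediates, ranged from 128 to 183 CPM in OC.VWR and 141 to 183 CPM in OC.Sed, against 122 to 169 CPM in Con.VWR and 151 to 174 CPM in Con.Sed. The ranges of each of these genes overlapped between the diets, and their log2 fold changes lay between -0.25 for Eci2 in sedentary mice and 0.07 for Amacr in running mice.

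Among peroxisomal members, 4 of 13 were lower in each activity and 1, Nudt7, was higher in sedentary mice. Of all tested genes 6.06% were lower in running mice, 7.20% lower in sedentary mice and 9.11% higher in sedentary mice. Acaa1b (chr9:119148023-119157093), a peroxisomal thiolase, is one of the most abundant members per exon length, at 627 CPM per kilobase over all libraries. It was measured at 610.3, 979.7, 591, 821 and 573 CPM in the running OC mice, against 1454, 1433, 1907, 1308 and 2028 CPM in the running vehicle mice. No value overlapped, and Acaa1b was 2.27-fold lower (log2 fold change -1.19, SE 0.17, adjusted p = 9.78e-05). The sedentary values were 1094, 925, 889.6, 878 and 714 CPM in the sedentary OC mice, against 1747, 1879, 1882, 1776 and 1128 CPM in the sedentary vehicle mice. Even the lowest vehicle library, replicate 5, was above the highest OC library, and the decrease was 1.87-fold (log2 fold change -0.90, SE 0.17, adjusted p = 0.00139).

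Acaa1a (chr9:119339676-119350299), a related thiolase gene on the same chromosome, was not called. It averaged 215 ± 20.4 CPM in OC.VWR and 243 ± 22.3 CPM in OC.Sed, against 239 ± 56.96 CPM in Con.VWR and 266 ± 53.1 CPM in Con.Sed (SD, n = 5 each). The log2 fold changes were -0.15 (SE 0.14, adjusted p = 0.522) in running and -0.14 (SE 0.14, adjusted p = 0.554) in sedentary mice. The 2 genes share sequence, since 30.48% of the 50-base stretches of Acaa1b occur in Acaa1a, so reads from those stretches could have been assigned to either. Whether the 2 genes differed in their response was not tested.

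Acot3 and Acot4 encode peroxisomal thioesterases and lie in the Acot cluster of chromosome 12, where Acot2 (chr12:83987861-83993873), Acot1 (chr12:84009490-84018371), Acot4 (chr12:84038379-84048601), Acot3 (chr12:84052144-84060402) and Acot5 (chr12:84069325-84076020) lie in that order on the plus strand. Acot3 had 25.4, 76.9, 27.6, 103 and 26.2 CPM in the running OC mice, against 306, 289, 324, 183 and 356 CPM in the running vehicle mice. The ranges were fully apart, and Acot3 was 5.62-fold lower (log2 fold change -2.49, SE 0.46, adjusted p = 0.000972). Its sedentary values were 99.2, 56.9, 197, 204 and 43.4 CPM in the sedentary OC mice, against 655, 202, 399, 424 and 316 CPM in the sedentary vehicle mice. OC replicate 4 just exceeded vehicle replicate 2, and the decrease was 3.32-fold (log2 fold change -1.73, SE 0.44, adjusted p = 0.0119). Acot3 shares 19.12% of its 50-base stretches with other genes, and its level is uncertain to that extent.

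Acot4, whose promoter holds a match just before the start site, was lower in both activities. Its values were 74.7, 145, 84.4, 147 and 84.2 CPM in the running OC mice, against 259.9, 293, 287, 209 and 348 CPM in the running vehicle mice. All OC values were below all vehicle values, and Acot4 was 2.61-fold lower (log2 fold change -1.38, SE 0.23, adjusted p = 0.00037). Sedentary mice gave 149, 122, 206, 209.5 and 99.4 CPM in the sedentary OC mice, against 509.9, 288, 368, 389.8 and 287 CPM in the sedentary vehicle mice. These ranges did not overlap either, and the decrease was 2.35-fold (log2 fold change -1.23, SE 0.23, adjusted p = 0.00113). Only 4.53% of the 50-base stretches of Acot4 occur in another gene.

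Acot1, the cytosolic thioesterase of the same cluster, was not called by edgeR, and its OC libraries were split. In running mice the values were 8.24, 88.2, 16.04, 12.5 and 5.78 CPM on OC, against 38.9, 45.3, 78.4, 21.5 and 118 CPM on vehicle. OC replicate 2 alone was in the vehicle range, and the log2 fold change was -1.21 (SE 0.68, adjusted p = 0.251). Without that library it was -2.51 with an adjusted p of 0.00951. Sedentary mice gave 22.4, 20.7, 34.3, 95.3 and 7.60 CPM in the sedentary OC mice, against 118, 115, 48.4, 83.7 and 32.8 CPM in the sedentary vehicle mice. OC replicate 4 was high there, and the log2 fold change was -1.14 (SE 0.67, adjusted p = 0.259). Acot1 shares 19.17% of its 50-base stretches with other genes, mostly Acot2. Averaged over activity the log2 fold change was -1.17 (SE 0.48, adjusted p = 0.0808), while limma voom called it lower (-1.60, adjusted p = 0.0145). Without OC.VWR replicate 2 the averaged value was -1.83 (adjusted p = 0.00242), and without OC.Sed replicate 4 it was -1.56 (adjusted p = 0.0186).

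Crot (chr5:8966033-8997324), the carnitine octanoyltransferase that exports shortened acyl groups from peroxisomes, had 164, 292, 221, 263 and 179 CPM in the running OC mice, against 528, 303, 379.6, 263 and 588 CPM in the running vehicle mice. Vehicle replicate 4 lay within the OC range, and Crot was 1.84-fold lower (log2 fold change -0.88, SE 0.23, adjusted p = 0.0148). Without running it had 265, 249, 315, 365 and 240.1 CPM in the sedentary OC mice, against 416, 659, 502, 549 and 286 CPM in the sedentary vehicle mice. Vehicle replicate 5 lay within the OC range, and the decrease was 1.68-fold (log2 fold change -0.75, SE 0.23, adjusted p = 0.0302). The sedentary call was present under 20 of 27 settings and the running call under all 27.

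Nudt7 (chr8:114133557-114154739), a peroxisomal hydrolase that degrades CoA, moved the other way. It had 367, 222, 589, 304 and 361 CPM in the running OC mice, against 229, 227, 188, 292 and 174 CPM in the running vehicle mice. The ranges overlapped and the change was not called (log2 fold change 0.73, SE 0.30, adjusted p = 0.113). Among sedentary mice it had 344, 432, 195, 349 and 546 CPM in the sedentary OC mice, against 100.2, 125, 222, 171 and 345 CPM in the sedentary vehicle mice. Vehicle replicates 3 and 5 lay within the OC range, and Nudt7 was 1.94-fold higher on OC (log2 fold change 0.96, SE 0.30, adjusted p = 0.0352), a call present under 20 of 27 settings. Averaged over activity it was 1.79-fold higher (log2 fold change 0.84, SE 0.21, adjusted p = 0.00635). Nudt19, a related CoA hydrolase, was not called, with means of 90.04 ± 13.9 CPM in OC.VWR and 75.3 ± 8.55 CPM in OC.Sed, against 88.5 ± 10.4 CPM in Con.VWR and 92.3 ± 12.2 CPM in Con.Sed (SD, n = 5 each).

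In edgeR's test Hacl1 and Pecr were called when the diet effect was averaged over activity and in neither activity alone. Hacl1 (chr14:31598730-31641286), the lyase of alpha-oxidation, had 187, 457, 288, 496 and 316 CPM in OC.VWR and 347, 286, 551, 502 and 371 CPM in OC.Sed, against 395, 436, 877, 539.9 and 634 CPM in Con.VWR and 495, 389, 866, 324 and 636 CPM in Con.Sed. The groups overlapped widely, and the averaged decrease was 1.48-fold (log2 fold change -0.56, SE 0.20, adjusted p = 0.0469), called under 10 of 26 settings. Of its 50-base stretches 28.4% also occur in another gene. Pecr (chr1:72259167-72284314), a peroxisomal enoyl-CoA reductase, had 192, 186, 190.4, 219 and 206 CPM in the running OC mice, against 303, 226, 272, 283 and 234 CPM in the running vehicle mice. Those ranges did not overlap, yet the change in running mice missed the threshold (log2 fold change -0.41, SE 0.14, adjusted p = 0.0544). It was called by DESeq2 (adjusted p = 0.0292) and when the 2 running groups were fitted alone (adjusted p = 0.0199). The sedentary levels were 216, 194, 194, 182 and 195 CPM in the sedentary OC mice, against 227, 133, 274, 222 and 264 CPM in the sedentary vehicle mice. Vehicle replicate 2 was the lowest of all 10 sedentary libraries. The sedentary log2 fold change was -0.19 (adjusted p = 0.363) with it and -0.33 (adjusted p = 0.0248) without it, and the averaged decrease was 1.23-fold (log2 fold change -0.30, SE 0.10, adjusted p = 0.0301).

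The other peroxisomal members were not called by edgeR in any comparison. Phyh, the phytanoyl-CoA hydroxylase that starts alpha-oxidation, had the highest level per exon length of the 30 members, at 1000.2 CPM per kilobase, and averaged 1978 ± 211 CPM in OC.VWR and 1967 ± 144 CPM in OC.Sed, against 1757 ± 189 CPM in Con.VWR and 1871 ± 148 CPM in Con.Sed (SD, n = 5 each). Hsd17b4, the multifunctional enzyme of the peroxisomal spiral, ranged from 286 to 474 CPM on OC and 371 to 645 CPM on vehicle in running mice, and the change stayed just above the threshold (log2 fold change -0.44, SE 0.15, adjusted p = 0.0524; adjusted p = 0.0264 with DESeq2). Its sedentary log2 fold change was 0.10 (adjusted p = 0.699), and the difference between the 2 effects did not pass the interaction test (log2 difference -0.54, adjusted p = 0.226). Pex11a, which promotes peroxisome division, had log2 fold changes of -0.22 in running and -0.34 in sedentary mice. Acot8, a peroxisomal thioesterase of broad substrate range, had log2 fold changes of 0.05 and 0.19 in running and sedentary mice.

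**Figure D3:**
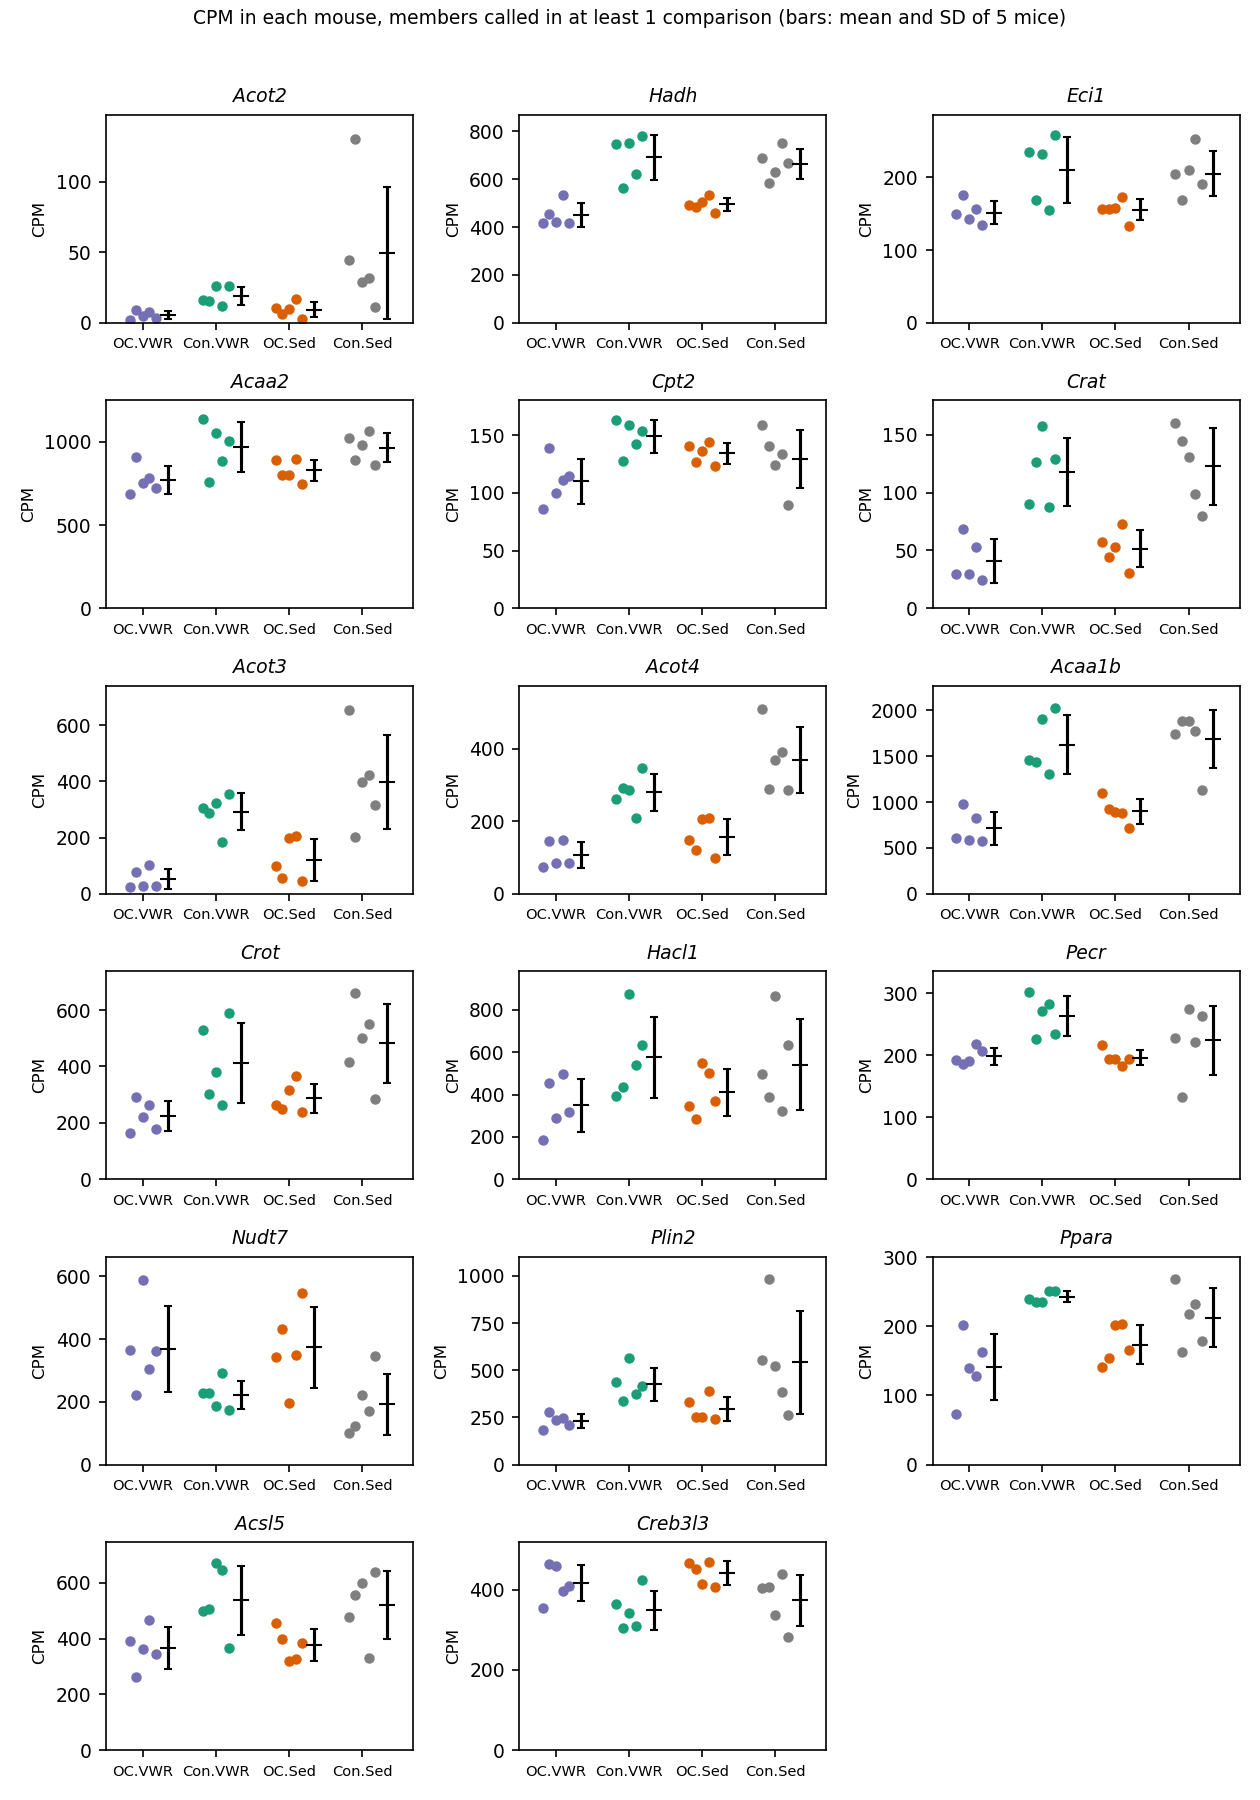
CPM in each mouse for the 17 members called in at least 1 comparison, in the order OC.VWR, Con.VWR, OC.Sed and Con.Sed, with the mean and SD of 5 mice as a bar beside each set of points. Axes start at 0 and are linear. The OC points of Hadh, Crat and Acaa1b lie below all vehicle points, Con.Sed replicate 2 stands out at 130 CPM for Acot2 and 981 CPM for Plin2, and the 5 Con.VWR points of Ppara lie within 235 to 251 CPM.

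The gene of the receptor itself, Ppara (chr15:85734983-85802819), was lower on OC in running mice. It had 72.8, 201, 139.9, 128 and 163 CPM in the running OC mice, against 239, 236, 235, 251 and 251 CPM in the running vehicle mice. The vehicle values were tightly grouped and all above the OC values, and Ppara was 1.72-fold lower (log2 fold change -0.78, SE 0.19, adjusted p = 0.00883). In sedentary mice it had 141, 154, 202, 204 and 166 CPM in the sedentary OC mice, against 269, 163, 218, 233 and 178 CPM in the sedentary vehicle mice. These overlapped and the change was not called (log2 fold change -0.29, SE 0.19, adjusted p = 0.303). The effect of OC was not shown to differ between activities, since the interaction did not pass the test (log2 difference -0.49, SE 0.26, adjusted p = 0.335). Creb3l3 (chr10:81084324-81098874), a membrane-bound transcription factor that works with PPARA in fasted liver, was called only averaged over activity, where it was 1.19-fold higher on OC (log2 fold change 0.25, SE 0.08, adjusted p = 0.0361). Its values were 353, 464, 459, 398 and 410.2 CPM in OC.VWR and 466, 452, 415, 469.8 and 407 CPM in OC.Sed, against 364, 304, 343, 309 and 424 CPM in Con.VWR and 405, 408, 336, 439 and 282 CPM in Con.Sed. The diets overlapped in both activities, and the call was present under 13 of 26 settings.

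Plin2 (chr4:86648386-86670060), the coat protein of hepatic lipid droplets, had 183, 280.4, 237, 249.8 and 209 CPM in the running OC mice, against 437, 339.7, 564, 372 and 416 CPM in the running vehicle mice. All OC values were below all vehicle values, and Plin2 was 1.84-fold lower (log2 fold change -0.88, SE 0.25, adjusted p = 0.0221). In sedentary mice it had 334, 251, 255, 393 and 242 CPM in the sedentary OC mice, against 555, 981, 524, 383 and 264 CPM in the sedentary vehicle mice. Vehicle replicate 2 was far above the rest and vehicle replicates 4 and 5 lay within the OC range, and the decrease was 1.84-fold (log2 fold change -0.88, SE 0.25, adjusted p = 0.0196). Without vehicle replicate 2, the library with the highest adipocyte marker sum, the log2 value was -0.55 with an adjusted p of 0.0645.

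Acsl5 (chr19:55251938-55297720), a long-chain acyl-CoA synthetase, had 391, 262, 364, 467 and 345 CPM in the running OC mice, against 497, 506, 671, 645 and 368 CPM in the running vehicle mice. The ranges overlapped, and the decrease of 1.47-fold was close to the threshold (log2 fold change -0.55, SE 0.18, adjusted p = 0.0476), called under 10 of 27 settings. In sedentary mice it had 456, 400.3, 319, 327 and 384 CPM in the sedentary OC mice, against 478, 556, 599, 332 and 638 CPM in the sedentary vehicle mice, which was not called (log2 fold change -0.46, SE 0.18, adjusted p = 0.0848). Averaged over activity Acsl5 was 1.42-fold lower (log2 fold change -0.51, SE 0.13, adjusted p = 0.00621). Acsl1, the most abundant synthetase of the list per exon length, was not called, with 594, 1912, 779, 919.8 and 889 CPM in running OC mice against 1335, 1224, 1481, 1158 and 1563 CPM in running vehicle mice. OC replicate 2 was above all of them, and without it the log2 fold change moved to -0.77 (adjusted p = 0.00732), against -0.41 with it. Acot12, a cytosolic thioesterase for acetyl-CoA, had log2 fold changes of 0.08 in running and 0.14 in sedentary mice, and Vnn1, a pantetheinase, -0.44 and -0.06, none of them called.

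Wheel running itself was not followed by a called change in any member. On the OC diet, on the vehicle diet, averaged over diet, and in the interaction, 0 of 30 members and 0 of 10207 genes (0.00%) passed edgeR's test, and DESeq2 and limma voom also called 0 members in each. Among all genes limma voom called 0 in each, while DESeq2 called 1 on the OC diet, 41 on the vehicle diet, 2 averaged over diet and 58 in the interaction. At an unadjusted p under 0.05, 5 members passed on the OC diet, 1 on the vehicle diet, 3 averaged over diet and 2 in the interaction, where 694, 1414, 496 and 1802 of all genes did. The median log2 fold change of running was -0.16 for members on the OC diet and -0.05 on the vehicle diet, where the medians of all genes were -0.0017 and -0.014. Of the 30 members 27 lay below 0 on the OC diet and 18 on the vehicle diet, where 50.28% and 52.64% of all genes did.

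Thioesterases had the lowest unadjusted p for running. Acot2 averaged 19.02 ± 6.44 CPM in running and 49.3 ± 46.8 CPM in sedentary vehicle mice (SD, n = 5 each), a log2 fold change of -1.37 (SE 0.49, adjusted p = 0.269), with the high sedentary library among them. Acot3 averaged 51.9 ± 36.1 CPM in running and 120.2 ± 76.4 CPM in sedentary OC mice (SD, n = 5 each), a log2 fold change of -1.21 (SE 0.44, adjusted p = 0.683). Acot4 averaged 107 ± 35.7 CPM in running and 157 ± 49.4 CPM in sedentary OC mice (SD, n = 5 each), a log2 fold change of -0.55 (SE 0.23, adjusted p = 0.683). None of these differences passed the adjusted test. The lowest adjusted p of any member was 0.269 on the vehicle diet, 0.683 on the OC diet, 0.936 averaged over diet and 0.222 in the interaction.

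**Figure D4:**
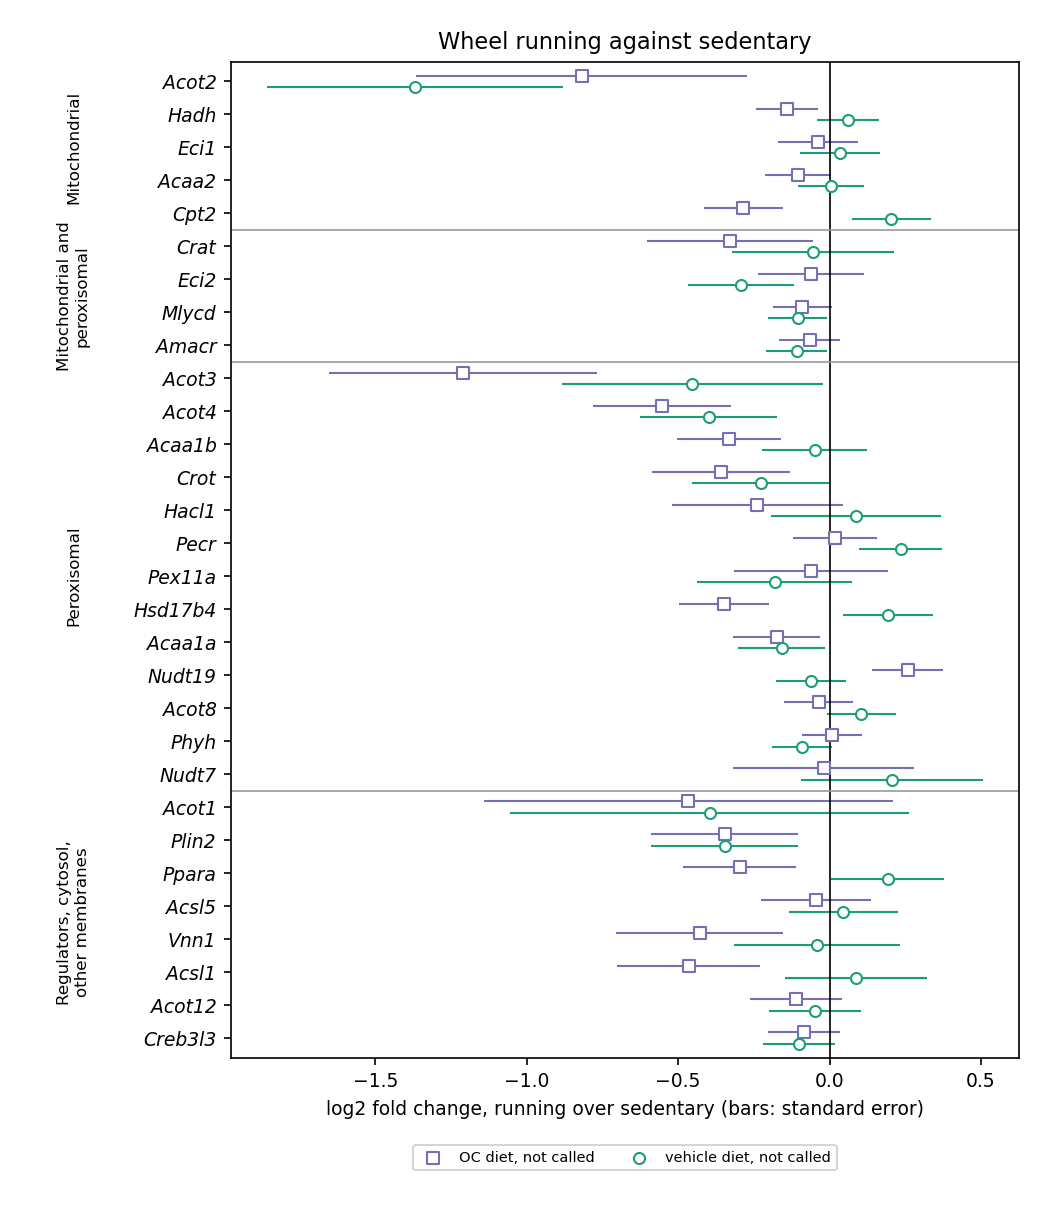
Fitted log2 fold change of running over sedentary for each tested member, on the OC diet (squares) and the vehicle diet (circles), with bars of 1 standard error on each side. No symbol is filled, since no member passed the test on either diet, and Acot2 on the vehicle diet and Acot3 on the OC diet lie furthest to the left.

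Neighbouring pathways were read from 7 further lists, described by counts for OC averaged over activity beside the 11.0% of genes lower and 11.9% higher. Of 6 tested genes of ketogenesis and its control (8 listed) 4 were lower and 1 higher. Acat1, the mitochondrial acetoacetyl-CoA thiolase, averaged 481 ± 29.4 CPM in OC.VWR and 466 ± 43.3 CPM in OC.Sed, against 861 ± 165 CPM in Con.VWR and 783 ± 108 CPM in Con.Sed (SD, n = 5 each; log2 fold change -0.79, SE 0.09, adjusted p = 8.41e-07). Fgf21, a fasting hormone and PPARA target, was lower at a low level (log2 fold change -1.60, SE 0.32, adjusted p = 0.000916).

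Of 8 tested genes of the carnitine shuttle and mitochondrial beta-oxidation outside the members (28 listed), 3 were lower and 0 higher, namely the thioesterase Acot13 (log2 fold change -0.76, SE 0.13, adjusted p = 0.000158) and the medium-chain acyl-CoA synthetases Acsm3 (log2 fold change -0.48) and Acsm5 (log2 fold change -0.31). Among 13 tested other peroxisomal enzymes and transporters (29 listed), 5 were lower and 2 higher. Hao2, a peroxisomal hydroxyacid oxidase, averaged 13.1 ± 8.61 CPM in OC.VWR and 11.1 ± 4.58 CPM in OC.Sed, against 59.4 ± 10.5 CPM in Con.VWR and 61.7 ± 25.4 CPM in Con.Sed (SD, n = 5 each; log2 fold change -2.33, SE 0.26, adjusted p = 1.33e-06). Eci3, a further enoyl-CoA isomerase, was near the lower limit of detection on OC, at 0.0950 ± 0.0720 CPM in OC.VWR and 0.137 ± 0.169 CPM in OC.Sed, against 3.83 ± 0.933 CPM in Con.VWR and 2.20 ± 1.44 CPM in Con.Sed (SD, n = 5 each; log2 fold change -4.58, SE 0.41, adjusted p = 5.53e-08). Agxt, the alanine-glyoxylate aminotransferase, was lower (log2 fold change -0.55, SE 0.12, adjusted p = 0.00158), and Mvk, mevalonate kinase, and Tysnd1, a peroxisomal protease, were higher (log2 fold change 0.61 and 0.21).

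Peroxisome biogenesis genes moved little, with 1 of 16 tested (17 listed) lower, the fission dynamin Dnm1l (log2 fold change -0.20), and 1 higher. Among 17 tested PPARA partners and co-regulators (25 listed), 3 were lower and 1 higher. The lower ones were the related receptor Pparg (log2 fold change -0.88, SE 0.12, adjusted p = 1.87e-05), the FGF21 co-receptor Klb (log2 fold change -0.60, SE 0.10, adjusted p = 0.000225) and the receptor Fgfr4 (log2 fold change -0.43). Of 22 tested other PPARA targets (40 listed) 7 were lower, 0 were higher and 15 were not called. The lower ones included G0s2, an inhibitor of lipolysis (log2 fold change -1.62, SE 0.25, adjusted p = 7.75e-05), the desaturase Fads2 (log2 fold change -0.81) and the fatty acid transporter Cd36 (log2 fold change -0.73). Cyp4a10, Cyp4a14, Fabp1 and Pdk4 of that list had displaced lines and were not tested. Among 12 tested lipid droplet and lipolysis genes (14 listed), Pnpla3 and Plin1 were lower at low levels (log2 fold change -2.61 and -1.79), and Abhd5, which activates lipolysis, and Mttp, which loads lipoproteins, were higher (log2 fold change 0.30 and 0.22).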

How the data were processed

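Stranded paired-end libraries were made from the RNA of 20 livers, per the labels' protocols. Per the submitters' processing notes, STAR, R 4.05, limma and the build mm10 were used. How genes were counted, with which annotation and strand setting, is not given in the sources used here. The deposited table was taken to hold expected counts, without scaling between libraries. This is a judgement, since 2 lines held values that were not whole and were not used, and the unit could also be plain counts. Rounding changed no value used. The planned design had assumed counts.

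Intact lines numbered 23993 (67.58%) of the 35504 deposited. Of the 11511 lines left out, 11508 held text or a 1 in the first place followed by 0 or by counts that were or could be displaced, 1 held a number and then a 1 and counts, and 2 held values that were not whole. Symbols were those of the deposited lines, except that 26 symbols turned into dates were looked up again by gene ID. Of the deposited IDs 35467 were found in the reference of gene names. Positions and exon lengths of the listed genes came from GENCODE vM21, on GRCm38, which mm10 also denotes.

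The test was edgeR 4.0.16 under R 4.3.3. The default filterByExpr left 10207 genes with 99.95% of counts, TMM set the scaling (factors 0.99 to 1.11 in OC.VWR, 1.02 to 1.07 in OC.Sed, 0.91 to 1.01 in Con.VWR and 0.90 to 1.06 in Con.Sed), and all 20 libraries entered a quasi-likelihood model of the 4 group means. It gave 7 contrasts, namely OC against vehicle and running against sedentary at each level of the other factor, both averaged, and the interaction. Adjusted p-values are Benjamini-Hochberg values over all tested genes, with a threshold of 0.05. Each standard error belongs to its fitted log2 value, and CPM values use the scaled library sizes. P-values set the difference between group means against the spread between mice within groups, estimated for each gene over all 4 groups together. The steps were run on simulated counts in which 200 genes were changed on OC, in random directions, and all others were held equal between groups. That simulation was not set up to test the choice of scaling.

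Alternatives were DESeq2 1.42.0, limma 3.58.1 voom, DESeq2 size factors, library totals, no filter on low counts, a fit of 2 groups only, displaced lines moved back with 19 libraries, and leaving out each library in turn. Shared sequence was measured as the share of a gene's 50-base transcript stretches that also occur in transcripts of another gene. Promoters are from RefSeq on GRCm38.p6.

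The members, the pathway lists and the marker lists were chosen with earlier results of these data known, so their counts are descriptions. Every member is accounted for. Members called in at least 1 contrast are given with the value of every library, and of each further list up to 3 genes per direction with the lowest adjusted p for OC averaged over activity are named. Some genes of these further lists are not reported here by name.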

Additional observations from a re-analysis of the deposited data

Results flagged for a closer look

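In 120 sets of 5 libraries (30 members in 4 groups), 2 had an extreme library, by Dixon's test on log2 CPM, and chance alone flags about 1 set in 20. Acaa1b in Con.Sed replicate 5 was at 1128 CPM, while the other 4 libraries of that group were at 1747 to 1882 CPM (gap over range 0.854). Without that library the log2 fold change of Acaa1b in sedentary mice was -1.02 (adjusted p = 0.000385), against -0.90 with it. Phyh in Con.VWR replicate 2 was at 1436 CPM, while the other 4 libraries were at 1783 to 1936 CPM (gap over range 0.724).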

How the results depend on the processing

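No member changed direction while called under any alternative. Apart from leaving out a library, the number of members called was 9 to 15 for OC in running mice (13 as reported), 8 to 10 in sedentary mice (10) and 15 to 16 averaged over activity (16). Leaving out 1 library at a time gave 7 to 15 in running mice, with 7 without OC.VWR replicate 1, 8 without OC.VWR replicate 3 and 7 without Con.VWR replicate 3, 6 to 10 in sedentary mice, with 6 without OC.Sed replicate 5, and 13 to 16 averaged over activity. Running and the interaction gave 0 members in each. Hadh, Crat, Acaa1b, Acot3 and Acot4 were called in both activities under each alternative, as were Crot and Ppara in running mice and Acot2 in sedentary mice. Acot2 in running mice was called under 21 of 27 settings, Cpt2 under 18, Eci1 under 20 and Plin2 under 25, and Plin2 in sedentary mice under 24. Scaled by library totals alone, the log2 value of Acaa2 was -0.22 (adjusted p = 0.177) in running mice and -0.16 (adjusted p = 0.113) averaged over activity. That of Pecr averaged over activity was -0.17 (adjusted p = 0.116). Calls were also lost under that scaling for Cpt2 (adjusted p = 0.125), Eci1 (0.0654) and Acsl5 (0.0782) in running mice. The same held for Eci1 (adjusted p = 0.139) and Crot (0.0612) in sedentary mice and for Hacl1 averaged over activity (0.0844). Phyh (0.29, adjusted p = 0.0428) and Nudt7 (0.86, adjusted p = 0.0458) were called higher in running mice under that scaling. Averaged over activity under that scaling, Phyh (0.24, adjusted p = 0.0112) and Acot8 (0.24, adjusted p = 0.0398) were called higher. Nudt7 in running mice was also called when its 2 groups were fitted alone (adjusted p = 0.041). Beside the cases given with the genes above, leaving out 1 library added calls for sedentary Nudt19 (-0.36, adjusted p = 0.0432, without Con.Sed replicate 2), sedentary Acsl5 (-0.59, adjusted p = 0.0248, without Con.Sed replicate 4) and averaged Cpt2 (-0.25, adjusted p = 0.0311, without Con.Sed replicate 5). In running mice Hsd17b4 was called lower without OC.VWR replicate 2 (adjusted p = 0.0201), Con.VWR replicate 2 (0.0194), Con.Sed replicate 2 (0.0481) or Con.Sed replicate 5 (0.0444). Pecr in running mice was called lower without Con.Sed replicate 2 (adjusted p = 0.00466), Con.Sed replicate 3 (0.048) or Con.VWR replicate 2 (0.0423). The cause of these changes was not tested beyond the shift of all genes given with the results. No paired analysis was made, since the replicates were separate mice and the labels give no pairing between them.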
